A study of Mus musculus with 48 samples.

Results

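The endoplasmic reticulum (ER) chaperones of the unfolded protein response were followed in the mouse substantia nigra (SN) as a set of 10 genes, Hspa5, Hsp90b1, Hyou1, Sdf2l1, Calr, Pdia4, Pdia6, Creld2, Manf and Herpud1, taken by symbol from the 19601 protein-coding genes of the batch-corrected table. All 10 passed the filter on low counts, together with 14839 genes in all. Male C57Bl/6J mice had received a unilateral intrastriatal injection of α-synuclein preformed fibrils (PFF), which seed aggregates of the endogenous protein, or of monomeric α-synuclein as the control, at 121 days of age, and breathed 21% or 11% O2 for about 12 weeks. The SN was harvested 90 to 98 days after the injection. The 4 groups of 12 mice each fell into 3 batches by the labels, tied in the study's methods to the date of euthanasia, and the authors left out 6 mice as outliers. That left 11 monomer and 12 PFF mice at 21% O2 and 9 monomer and 10 PFF mice at 11% O2. No group was free of an injection. The sources differ on the oxygen exposure, since the series design gives 6 weeks of 21% O2 before 6 weeks of 11% O2 and the treatment protocol gives the chambers directly after the injection.

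Proteins enter the ER unfolded and are folded there by chaperones, and when unfolded chains accumulate the sensors IRE1, PERK and ATF6 are released from the chaperone BiP. IRE1 splices the mRNA of XBP1 and ATF6 is cleaved to an active factor. Both then raise transcription of ER chaperone genes through ER stress response elements (ERSE) in their promoters, whereas PERK slows translation and acts through ATF4. Of the 10 genes, Hspa5 encodes BiP itself, Hsp90b1 the ER form of HSP90, Hyou1 a large chaperone and nucleotide exchange factor for BiP and Sdf2l1 a cofactor of BiP. Calr encodes the lectin chaperone calreticulin, Pdia4 and Pdia6 disulfide isomerases, Creld2 an ER protein with isomerase activity, Manf a secreted ER-resident neurotrophic factor and Herpud1 a membrane protein of ER-associated degradation.

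RefSeq promoter windows (build GRCm38.p6, 250 bases before to 50 after the start site) were matched for 8 of the 10 genes, all but Manf and Hyou1. They were searched on both strands for the response elements given below. The ERSE, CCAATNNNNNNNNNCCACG, was present in the windows of 5 of these 8 genes and in 39 of 32851 windows of all genes (0.119%). The 6 matches are shown because they are the elements that these genes share, each read on the strand of the element, with the fixed letters in capitals and the spacer in lower case.
Hspa5, chr2:34772025-34772043: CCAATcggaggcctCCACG
Hsp90b1, chr10:86705638-86705656: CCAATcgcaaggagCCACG
Hsp90b1, chr10:86705533-86705551: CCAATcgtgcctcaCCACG
Pdia6, chr12:17266491-17266509: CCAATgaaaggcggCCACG
Calr, chr8:84847075-84847093: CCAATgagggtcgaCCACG
Creld2, chr15:88819520-88819538: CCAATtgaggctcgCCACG

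The matches lay between positions -212 and -47, counted from the start site, and 6 or 7 of the 9 spacer bases were G or C in each. Hsp90b1 held 2 of them, on opposite strands, and in Calr and Creld2 the element ran against the gene. Herpud1, with no full ERSE, held the variant ERSE-II, ATTGGNCCACG, which shares the CCACG end and was found in 0.0365% of all windows. It also held TGATGNAA, the amino acid response element bound by ATF4, found in 3.97% of windows. Hspa5 also held the UPRE core TGACGTG (2.01% of windows). No exact match to these 4 elements was found in the windows of Sdf2l1 and Pdia4, which says only that these letters are not there. The longer stretches upstream of the annotated genes show the elements in place, in the direction of the gene. Each of the 6 stretches lay outside the annotated gene it is named for, and overlap with other genes was not checked. The ERSE of Hspa5 lay within its annotated gene, whose GENCODE start is at 34771970 on chromosome 2. The UPRE core of Hspa5, the ERSE of Hsp90b1, Pdia6, Calr and Creld2 and the ERSE-II of Herpud1 are in capitals.
Hspa5, chr2:34771840-34771969 (+ strand): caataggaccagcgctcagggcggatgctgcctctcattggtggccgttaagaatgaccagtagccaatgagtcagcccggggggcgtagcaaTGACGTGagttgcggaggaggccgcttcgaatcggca
Hsp90b1, chr10:86705525-86705694 (- strand): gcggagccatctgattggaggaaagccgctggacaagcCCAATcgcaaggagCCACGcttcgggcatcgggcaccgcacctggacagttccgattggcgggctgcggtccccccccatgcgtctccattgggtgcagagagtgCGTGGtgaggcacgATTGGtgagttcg
Pdia6, chr12:17266461-17266539 (+ strand): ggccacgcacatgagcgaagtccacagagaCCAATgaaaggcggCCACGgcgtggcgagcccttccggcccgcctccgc
Calr, chr8:84847045-84847123 (- strand): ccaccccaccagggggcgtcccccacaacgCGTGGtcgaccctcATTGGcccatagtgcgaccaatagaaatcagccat
Creld2, chr15:88819490-88819568 (+ strand): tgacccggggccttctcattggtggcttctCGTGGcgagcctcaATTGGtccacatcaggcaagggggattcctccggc
Herpud1, chr8:94386347-94386417 (+ strand): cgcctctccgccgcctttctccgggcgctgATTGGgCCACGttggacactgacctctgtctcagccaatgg

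**Figure D1:**
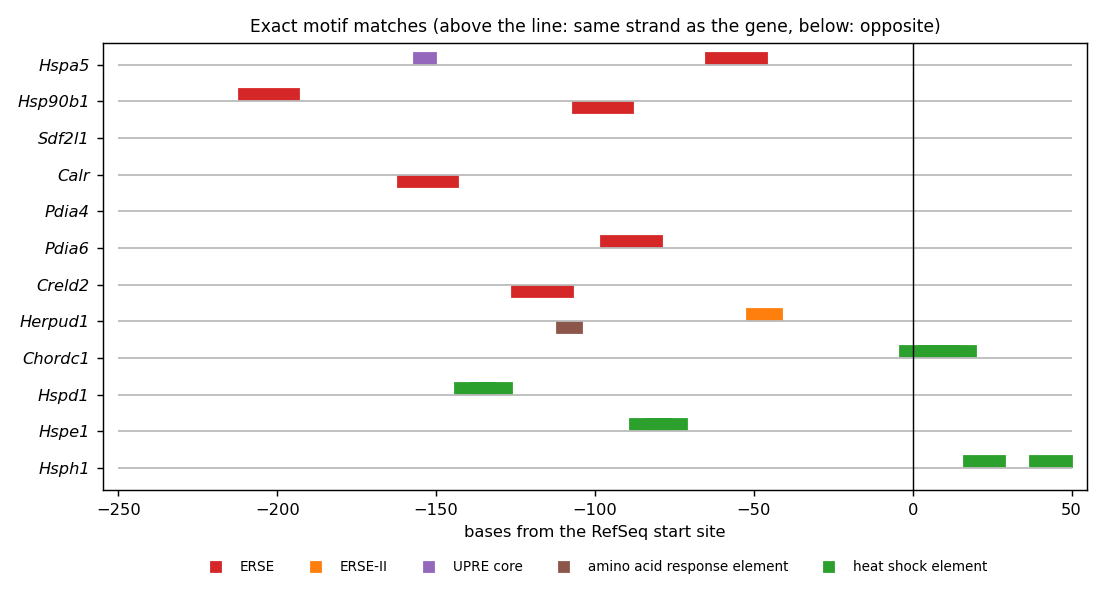
Exact motif matches in RefSeq promoter windows, by distance in bases from the start site (x axis), for the 8 matched ER chaperone genes. Below them are the 4 cytosolic or mitochondrial heat shock genes with a heat shock element. Boxes above the line are on the strand of the gene. The ERSE matches of 5 ER chaperone genes fall between -212 and -47, and no heat shock element falls in the 8 windows.

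Other gene lists of the pathway held the ERSE in Canx, Dnajc3 and Ero1b among 23 matched genes of ER folding, in Derl3 and Syvn1 among 15 of ER-associated degradation and in none of 8 sensors and factors of the response. A heat shock element, GAANNTTCNNGAA or TTCNNGAANNTTC, occurred in 0.603% of all windows and in none of the 8 ER chaperone windows. It occurred for 4 of 15 matched cytosolic or mitochondrial heat shock genes (Chordc1, Hspd1, Hspe1 and Hsph1), some of which have several windows. Windows of Hspd1 and Hspe1 overlap on opposite strands, and their matches are the same bases. The genes with a match outside the 10 were named after their matches were seen.

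Uncorrected totals ranged from 12902996 to 17120921 counts per mouse in the 42 mice used, and each of the 10 genes had at least 116 counts in every mouse. Th, the rate-limiting enzyme of dopamine synthesis, ranged from 96.1 to 1079 TPM (transcript counts scaled by gene length and library total) over the 42 mice and the dopamine transporter Slc6a3 from 263 to 1932 TPM, so both markers of the dissected region were present in every mouse, with wide ranges in each group. None of 50 tested markers in 9 cell type lists passed both the adjusted p and the fold change threshold between PFF and monomer mice at 21% or at 11% O2, and 1 oligodendrocyte marker, Mog, named after its value was seen, passed the adjusted p alone at 21% O2 (0.20 ± 0.06, adjusted p = 0.0284). Calr was the most abundant of the set, at 472 ± 50.1 TPM (SD, n = 42, batch-corrected), followed by Hsp90b1 at 315 ± 35.0, Hspa5 at 295 ± 69.2 and Pdia6 at 132 ± 21.5 TPM. Herpud1 (100.1 ± 12.9 TPM), Pdia4 (92.2 ± 18.5 TPM) and Hyou1 (70.0 ± 10.7 TPM) came next. Manf, Sdf2l1 and Creld2 were lowest, at 56.4 ± 11.1, 55.6 ± 18.4 and 50.7 ± 15.9 TPM. In this order Calr stood off from Hsp90b1, and Hspa5 from Pdia6, by more than their SDs together, and the other neighbors did not. Even Creld2 stood above 72.6% of the genes tested.

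To ask how PFF altered these mRNAs in mice breathing 21% O2, PFF and monomer mice were compared with edgeR's quasi-likelihood test on the batch-corrected counts. A gene was called when its adjusted p (Benjamini-Hochberg) was below 0.05 and its log2 fold change exceeded 0.25 in size. Of the 10 ER chaperone genes, 7 were lower in PFF mice, at 0.666 to 0.828 times the monomer level, and none was higher. Over all genes tested, 209 of 14839 (1.41%) were called lower. The median log2 fold change was -0.30 over the 10 genes and 0.00 over all genes. These calls depended on batch 2 of the 3 batches. All 10 genes were called lower within batch 2 (1.81% of all genes called lower). None of the 10 was called within batch 1, with 4 mice against 4 (0.0542%), or without batch 2 (0.127%). The values by batch follow the comparisons.

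Hspa5 ranged from 295 to 478 TPM (median 376) in 11 monomer mice at 21% O2, from 210.6 to 386 TPM (median 263) in 12 PFF mice at 21% O2, from 224 to 303 TPM (median 264) in 9 monomer mice at 11% O2 and from 221 to 284 TPM (median 261) in 10 PFF mice at 11% O2. The monomer 21% O2 group was thus the high one, with 5 of its 11 mice above every PFF 21% O2 mouse, and it overlapped the others except for PFF mice at 11% O2, all 10 of which lay below its lowest mouse. At 21% O2 Hspa5 was lower in PFF than in monomer mice, with a log2 fold change of -0.46 ± 0.08 (SE) and an adjusted p of 0.000287.

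Among the partners of BiP, Sdf2l1 had a median of 86.0 TPM (50.1 to 101) in monomer and 50.3 TPM (31.0 to 78.2) in PFF mice at 21% O2, and 6 of 11 monomer mice exceeded every PFF mouse. Its log2 fold change was -0.59 ± 0.13 (adjusted p = 0.00293), the most negative of the 10, or 0.666 times the monomer level. Hyou1 fell from a median of 79.7 TPM (64.0 to 98.8) to 64.4 TPM (55.8 to 81.9), a log2 fold change of -0.28 ± 0.07 (adjusted p = 0.00633). Hsp90b1 ranged from 294 to 389 TPM (median 359) in monomer and from 269.5 to 387 TPM (median 301) in PFF mice. For Hsp90b1, 2 monomer mice lay above every PFF mouse and 3 PFF mice lay below every monomer mouse. The gene was not called (log2 fold change -0.14 ± 0.05, adjusted p = 0.0842).

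Creld2 had a median of 71.7 TPM (40.9 to 96.4) in monomer and 44.6 TPM (33.1 to 65.4) in PFF mice, and 6 of 11 monomer mice exceeded every PFF mouse. It fell by 0.58 ± 0.11 on the log2 scale (adjusted p = 0.000675). The isomerases Pdia4 and Pdia6 had medians of 104 TPM (85.0 to 137) and 153 TPM (121 to 190.9) in monomer mice, and of 85.6 TPM (70.0 to 134) and 126 TPM (104 to 164.1) in PFF mice. They fell by 0.31 ± 0.08 and 0.27 ± 0.07 on the log2 scale (adjusted p = 0.0132 and 0.0118). For Pdia4 and Pdia6, 2 and 4 monomer mice lay above every PFF mouse, and 5 and 4 PFF mice lay below every monomer mouse. Manf had a median of 72.5 TPM (53.9 to 84.3) in monomer and 53.6 TPM (40.8 to 76.7) in PFF mice, with 3 monomer mice above every PFF mouse, and fell by 0.33 ± 0.08 on the log2 scale (adjusted p = 0.00759).

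Calr had a median of 530.5 TPM (443 to 591) in monomer and 435 TPM (364 to 539.9) in PFF mice, and Herpud1 of 118 TPM (96.4 to 134) and 96.3 TPM (88.7 to 123). Of the 11 monomer mice, 3 lay above every PFF mouse for Calr and 2 for Herpud1. Both genes passed the adjusted p but not the fold change threshold, at -0.20 ± 0.05 (adjusted p = 0.0102) and -0.19 ± 0.05 (adjusted p = 0.0142), so 9 of 10 passed on the adjusted p alone, against 3.71% of all genes in this direction.

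**Figure D2:**
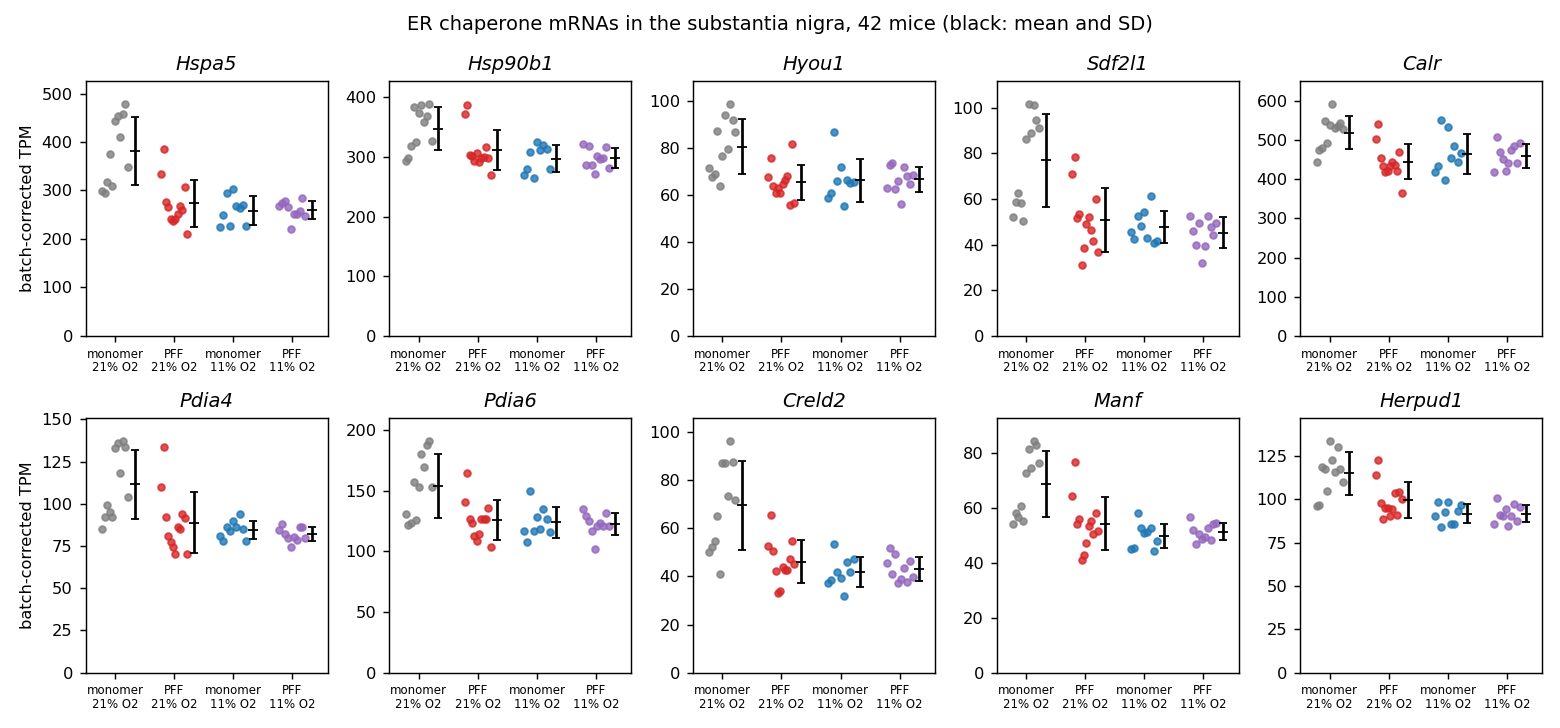
Batch-corrected TPM (y axis) of each ER chaperone gene in 42 mice by group; each point is a mouse and the black mark is the mean and SD (n = 11, 12, 9 and 10 from left to right). Monomer mice at 21% O2 hold the highest values, with Hspa5 up to 478 TPM, and the other 3 groups have similar medians.

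In mice breathing 11% O2 the same comparison called none of the 10 genes, and none of 14839 genes in all (0%). In edgeR 581 genes (3.92%) had an unadjusted p under 0.05, with none of the 10 among them, and DESeq2 called 1 gene (0.00513%). The log2 fold changes of the 10 lay between -0.06 for Sdf2l1 and 0.06 for Creld2 and Manf. The 95% interval was -0.16 to 0.20 for Hspa5, -0.19 to 0.31 for Creld2 and -0.35 to 0.23 for Sdf2l1, the widest of the set. A difference above 0.35 in size therefore lay outside all 10 intervals, and smaller ones lay inside some of them.

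Monomer mice at 11% O2 were next compared with monomer mice at 21% O2, the same 11 mice that served as controls above, so the values that follow are not independent of the PFF values. Of the 10 genes, 8 were called lower and none higher, against 2.55% of all genes called lower. None of the 10 was called without batch 2 (0.374% of all genes called lower), and all 10 estimates stayed below 0, with a median of -0.11. For PFF at 21% O2, the fit without batch 2 left 5 estimates below 0 and 5 above, with a median of -0.02. The medians in TPM at 21% O2 are those given above. Creld2 had the most negative estimate and fell by 0.73 ± 0.12 on the log2 scale (adjusted p = 4.65e-05), with a median of 41.7 TPM (31.7 to 53.5) at 11% O2. Sdf2l1 fell by 0.68 ± 0.14 (adjusted p = 0.000664), to a median of 45.3 TPM (40.8 to 61.4). Hspa5 fell by 0.55 ± 0.09 (adjusted p = 3.21e-05), and 9 of 11 mice at 21% O2 lay above every mouse at 11% O2. Manf, Pdia4, Herpud1, Pdia6 and Hyou1 fell by 0.46 ± 0.09, 0.39 ± 0.09, 0.32 ± 0.05, 0.31 ± 0.08 and 0.28 ± 0.07 on the log2 scale. Hsp90b1 passed the adjusted p only (-0.22 ± 0.06, adjusted p = 0.00561), which makes 9 of 10 on that threshold alone against 6.21% of all genes, and Calr passed neither (-0.15 ± 0.06, adjusted p = 0.0573).

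Endothelial and pericyte markers moved in this comparison as well. All 5 tested markers of each list were called higher at 11% O2. The summed endothelial level ranged from 179.8 to 307 TPM at 11% O2 against 125 to 181.5 TPM at 21% O2. The summed pericyte level ranged from 245 to 568.1 TPM against 184.9 to 307 TPM. Of 6 oligodendrocyte markers 2 were also higher. No defining marker of these lists was at 0. Their part in the ER chaperone values was not tested, and in whole tissue, fewer cells of a type and less RNA per cell cannot be told apart.

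In PFF mice, 11% against 21% O2 called none of the 10 genes, with 0.58% of all genes called and 21 genes called lower. The log2 fold changes ran from -0.16 ± 0.13 (Sdf2l1) to 0.05 ± 0.05 (Calr), and the lowest unadjusted p was 0.0282, for Herpud1 (-0.12 ± 0.05, adjusted p = 0.407). The interval for Hspa5 was -0.24 to 0.10. The interaction, the PFF effect at 11% minus that at 21% O2, was above 0 for all 10 genes and was called for Hspa5 (0.48 ± 0.12, adjusted p = 0.0223) and Creld2 (0.64 ± 0.17, adjusted p = 0.0268), against 1.1% of all genes called higher. Of 50 cell type markers, 2 were called lower in the interaction, 1 of 6 for oligodendrocytes and 1 of 5 for pericytes. Their summed levels in PFF mice were 7929 to 10425 TPM (oligodendrocyte) and 164.7 to 392 TPM (pericyte) at 21% O2, and 8382 to 10587 TPM and 235 to 335 TPM at 11% O2, no marker was at 0, and their part in the ER chaperone values was not tested. For Sdf2l1 it was 0.53 ± 0.19 (adjusted p = 0.143), and for Manf 0.39 ± 0.12 (adjusted p = 0.0669). Neither Hspa5 nor Creld2 was called with batch as a covariate on the uncorrected counts (0.649% of all genes called higher; adjusted p = 0.0791 and 0.114). Without batch 2 the estimates were 0.12 ± 0.14 for Hspa5 (adjusted p = 0.763) and 0.07 ± 0.15 for Creld2 (adjusted p = 0.885), and in batch 1 alone 0.13 ± 0.16 and 0.10 ± 0.21 (adjusted p = 0.762 and 0.873).

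**Figure D3:**
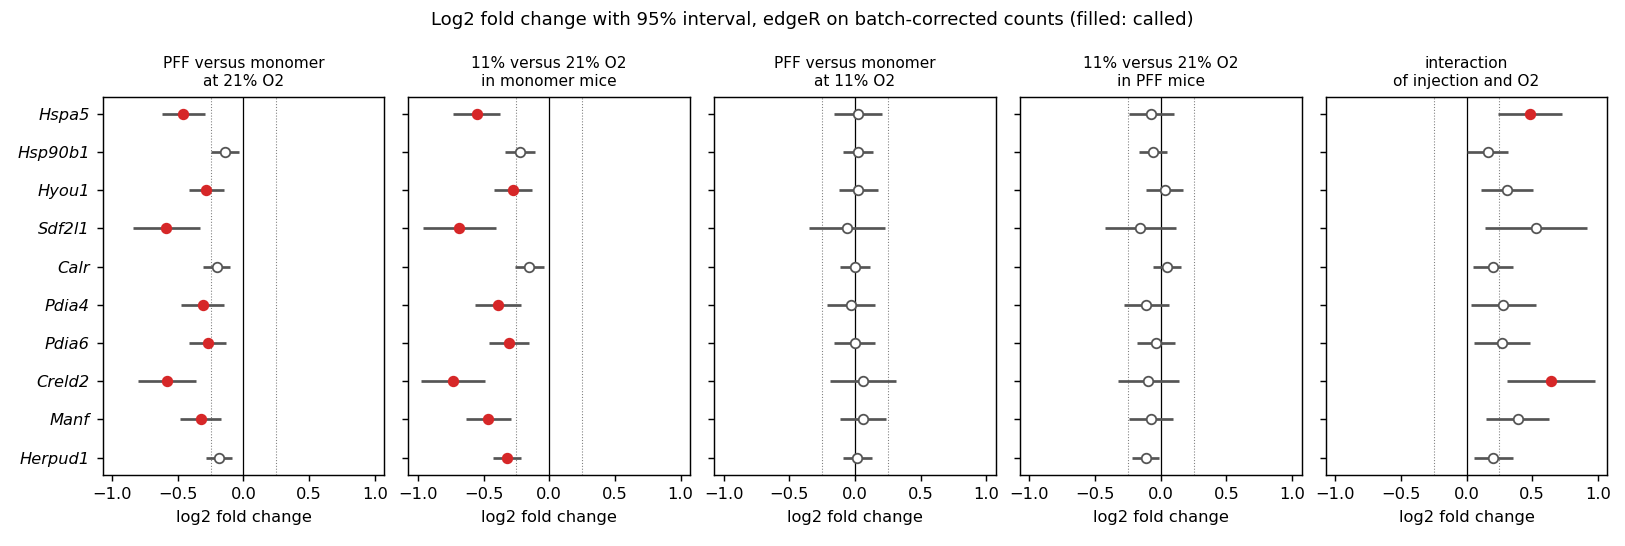
Log2 fold change (x axis) of each ER chaperone gene in the 5 comparisons, with its 95% interval; filled points were called and dotted lines mark the fold change threshold of 0.25. The points lie below 0 for both comparisons against monomer mice at 21% O2 and around 0 for PFF against monomer at 11% O2.

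The high level of monomer mice at 21% O2 was examined by batch in the TPM that had not been batch-corrected, because 4 of these 11 mice were in batch 1 and 7 in batch 2, and none in batch 3. Batch 2 in turn held no monomer mice at 11% O2. In batch 1, Hspa5 was 263, 258, 281 and 330.3 TPM in the 4 monomer mice and 303, 346, 246 and 237 TPM in the 4 PFF mice at 21% O2, and the range of the PFF mice enclosed that of the monomer mice. In batch 2, Hspa5 ranged from 303 to 458 TPM (median 423) in 7 monomer mice and was 236, 231, 236 and 245 TPM in 4 PFF mice. Every monomer mouse of batch 2 thus lay above every PFF mouse of that batch. In batch 3 the 4 PFF mice at 21% O2 had 245, 234, 280.4 and 190.3 TPM, near the PFF mice of batch 2.

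Sdf2l1 differed between batches by the largest ratio of the genes shown here. It was 37.0, 42.3, 45.8 and 41.5 TPM in the monomer mice of batch 1, below the median of the PFF mice there (48.3), and 55.9 to 106 TPM (median 96.1) in the monomer mice of batch 2, above all 4 PFF mice (34.7, 42.1, 52.3 and 55.2 TPM). Manf was 47.7 to 52.6 TPM in the monomer mice of batch 1 and 53.2 to 82.0 TPM in those of batch 2. The 4 PFF mice of batch 2 had 39.4, 41.6, 45.6 and 51.7 TPM of Manf, all below the lowest monomer mouse. For Creld2, the monomer mice of batch 1 had 41.2 to 54.9 TPM and those of batch 2 had 41.5 to 89.1 TPM with a median of 80.7. One monomer mouse of batch 2, replicate 5, was the lowest of its 7 for all 10 genes and lay within the range of the batch 1 monomer mice for Hspa5, Hsp90b1, Hyou1, Pdia6, Creld2 and Herpud1.

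Counted over the set, every PFF mouse lay below every monomer mouse of the same batch for 0 of 10 genes in batch 1 (5.86% of all genes tested) and for 7 of 10 in batch 2 (3.23%), with Pdia6, Creld2 and Hyou1 overlapping. The highest of the 42 mice was a monomer mouse of batch 2 for each of the 10 genes, and 5 or 6 of the top 7 mice came from that cell of the design. The summed level of the 10 genes was 1502 ± 111 TPM (SD, n = 4) in monomer mice of batch 1, 1999 ± 204.02 TPM (n = 7) in those of batch 2, and 1314 to 1492 TPM on average in the other 8 combinations of group and batch. The monomer 21% O2 mouse that the authors left out, replicate 10 of batch 2, had the highest sum of all 48 mice (2509 TPM) and 580.2 TPM of Hspa5.

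**Figure D4:**
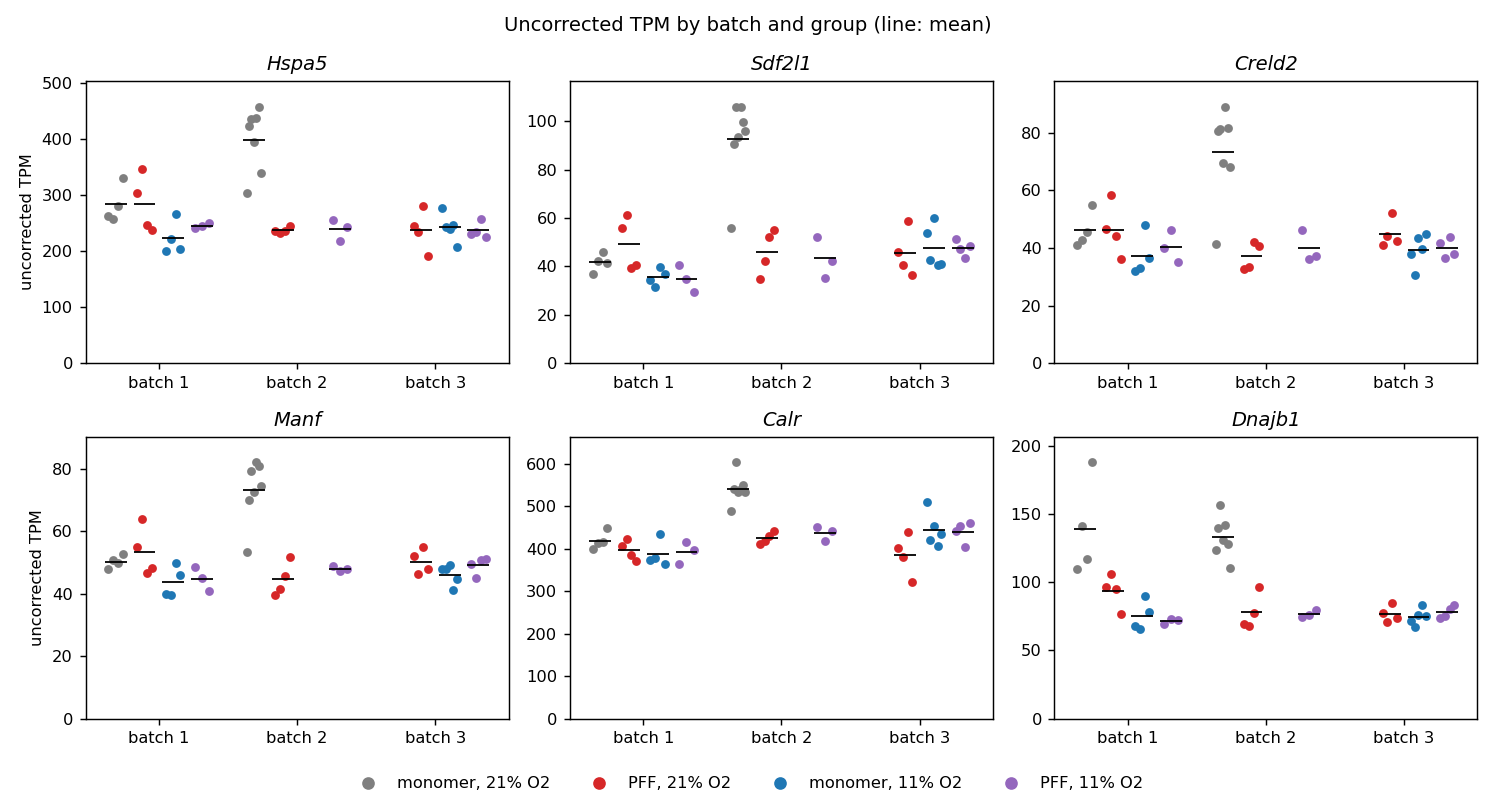
Uncorrected TPM (y axis) of 5 ER chaperone genes and of the cytosolic chaperone gene Dnajb1 in 42 mice, by batch (x axis) and group (color); each point is a mouse and lines are means. The ER chaperone genes are high in monomer mice at 21% O2 in batch 2, where Hspa5 averaged 399 TPM against 283 TPM in batch 1, while Dnajb1 is high in these mice in both batches.

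Fitted within each batch on the uncorrected counts, the PFF comparison at 21% O2 called all 10 genes lower in batch 2 (1.81% of all genes called lower), from -0.29 for Hsp90b1 to -0.99 for Sdf2l1. In batch 1, with 4 mice against 4, it called none of the 10 (0.0542% of all genes called lower), and 7 of the 10 estimates were above 0, with Hspa5 at 0.02 ± 0.11 and Sdf2l1 at 0.27 ± 0.14. The difference itself, the PFF effect in batch 2 minus that in batch 1, was tested in a fit of all combinations of group and batch and was called for 6 of the 10 genes, against 0.71% of all genes called lower. It was -1.26 ± 0.23 for Sdf2l1 (adjusted p = 0.00393), -1.0 ± 0.21 for Creld2 (adjusted p = 0.0146), -0.83 ± 0.14 for Pdia4 (adjusted p = 0.00176), -0.82 ± 0.13 for Manf (adjusted p = 0.00124), -0.77 ± 0.15 for Hspa5 (adjusted p = 0.00686) and -0.58 ± 0.13 for Pdia6 (adjusted p = 0.0232). For Hsp90b1, Herpud1, Calr and Hyou1 it lay between -0.32 and -0.28 and was not called. Without batch 2, none of the 10 genes was called in the PFF comparison at 21% O2 (0.127% of all genes called lower), in the O2 comparison of monomer mice (0.374%) or in the interaction (0.0401% called higher). Of the 50 cell type markers, 1 was called in the difference between batches, the endothelial Cldn5, named after its value was seen. The summed level of the 5 endothelial markers was 87.7 to 105 TPM in the monomer mice of batch 1 and 126 to 171.2 TPM in those of batch 2, and 114 to 137 TPM and 119.7 to 145 TPM in the PFF mice of these batches. The endothelial sum was thus also higher in the monomer mice of batch 2 than in those of batch 1, without overlap, no marker of the list was at 0, and its part in the ER chaperone values was not tested.

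The O2 comparison of monomer mice could be made within batch 1 only, with 4 mice against 4. All 10 estimates were below 0 there, with a median of -0.20, and none was called (1.07% of all genes called lower). Hspa5 was at -0.35 ± 0.11 (adjusted p = 0.101), with 200.3, 222, 266 and 203.3 TPM at 11% O2 against 258 to 330.3 TPM at 21% O2. Herpud1 (-0.24 ± 0.07, adjusted p = 0.0743) and Hsp90b1 (-0.20 ± 0.06, adjusted p = 0.0884) were the 2 genes whose groups did not overlap (4.85% of all genes).

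The batch correction of the authors shifted these genes by batch, and the shift of some genes also differed by group. In batch 1 the median change over the 10 genes was 14.5% upward in monomer and 15.0% upward in PFF mice at 21% O2, against 3.29% and 2.95% in batch 2. For Creld2 the rise in batch 1 was larger in monomer (20.6%) than in PFF mice (13.6%), as for Sdf2l1 (39.0% and 29.1%). It was smaller in monomer mice for Calr (15.9% and 21.9%) and Hsp90b1 (8.26% and 13.9%). In batch 2 the changes in monomer and PFF mice at 21% O2 were 6.27% and 3.19% for Creld2 and -5.25% and -7.45% for Sdf2l1. They were -0.893% and 0.656% for Calr and 4.78% and 6.34% for Hsp90b1. Sdf2l1 of monomer mice at 21% O2 was raised by the largest share, 39.0%, from a mean of 41.6 to 57.8 TPM in batch 1, and was lowered in batch 2, from 92.5 to 87.7 TPM. The gap between monomer mice of batch 1 and batch 2 remained in the corrected values (322 and 415 TPM on average for Hspa5). Total counts of the monomer mice at 21% O2 were 13596980 to 14528015 in batch 1 and 14424131 to 17120921 in batch 2, against 14669964 to 16258283 in the PFF mice of batch 2. The part of the batch in the ER chaperone values, and what set the monomer mice of batch 2 apart, was not tested.

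Across the 42 mice, with the group means removed, the 10 genes varied together. This is a description over mice that share batches, and the batch correction was applied to all of them. Pearson's r over the 45 pairs ran from 0.40 (Pdia6 and Herpud1) to 0.90 (Hspa5 and Pdia6), with a median of 0.70. With the mean of the other 9, r was highest for Hspa5 (0.93) and lowest for Herpud1 (0.59). The coefficient of variation was 17.2% in the median over the 10 genes in monomer mice at 21% O2, 15.2% in PFF mice at 21% O2, 10.5% in monomer mice at 11% O2 and 6.82% in PFF mice at 11% O2. The 8 other genes most like the mean of the set were Xbp1 (r = 0.91), Mafg (0.87), P4ha1 (0.85), Dnajb11 (0.83), Bicd2 (0.80), Zbtb40 (0.80), Hps4 (0.79) and Myo9b (0.79), over 42 mice. Dnajb11 encodes another ER cochaperone of BiP and P4ha1 a collagen prolyl hydroxylase of the ER.

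Xbp1, which encodes the transcription factor made by IRE1 splicing, was 94.7 to 151 TPM (median 119) in monomer mice at 21% O2 and 75.7 to 122 TPM (median 89.6) in PFF mice at 21% O2. Its medians at 11% O2 were 87.4 TPM in monomer and 88.8 TPM in PFF mice. It was the only one of 10 sensors and factors of the response that was called, at -0.35 ± 0.07 for PFF at 21% O2 (adjusted p = 0.000951), -0.43 ± 0.07 for 11% against 21% O2 in monomer mice (adjusted p = 8.76e-05) and 0.36 ± 0.10 for the interaction (adjusted p = 0.0456). For PFF it was at -0.02 ± 0.10 in batch 1 and at -0.54 ± 0.09 in batch 2, a difference of -0.52 ± 0.13 (adjusted p = 0.0456). The table counts whole genes, so spliced and unspliced Xbp1 were not told apart.

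Few genes were called in the other lists of the pathway. Over all genes, 3.7% were called either way for PFF at 21% O2. The shares were 7.23% for O2 in monomer mice and 2.14% for the interaction. For PFF at 21% O2, 1 of 26 other ER folding genes was called, Cdnf, a paralog of Manf, which was higher (0.45 ± 0.10, adjusted p = 0.00681), and none of 20 genes of ER-associated degradation, 20 of ER translocation and glycosylation or 12 targets of PERK and ATF4. The medians of these 4 lists were -0.02, -0.04, -0.01 and 0.03, against 0.00 for all genes. The PFF effect in batch 2 minus that in batch 1 was called lower for 2 other ER folding genes, Dnajc3 and Pdia3. It was called lower for 1 gene of ER-associated degradation, Edem1, against 0.71% of all genes. These 3 were named after their values were seen. Batch 2 alone called 3 other ER folding genes and 1 degradation gene for PFF, and batch 1 alone called 0 of either list. For 11% against 21% O2 in monomer mice, Creld1, a paralog of Creld2 (-0.26 ± 0.06, adjusted p = 0.00367), and Derl3, a channel component of ER-associated degradation (-0.53 ± 0.18, adjusted p = 0.0491), were lower, and the interaction was called for Ube2j2, a ubiquitin-conjugating enzyme of the ER (0.37 ± 0.07, adjusted p = 0.00162).

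The cytosolic and mitochondrial chaperones driven by HSF1 were the list with the most calls beside the ER chaperones. Of 18 genes, 7 were lower in PFF mice at 21% O2 and 10 at 11% against 21% O2 in monomer mice, and 5 were called higher in the interaction, against 1.41%, 2.55% and 1.1% of all genes. The HSP70 genes Hspa1a and Hspa1b, which are near-identical copies whose reads may be split between them, had log2 fold changes of -1.60 ± 0.22 and -2.39 ± 0.35 for PFF at 21% O2, and the HSP40 gene Dnajb1 and the HSP110 gene Hsph1 had -0.71 ± 0.07 and -0.48 ± 0.07. In batch 1 alone the PFF estimates of these 4 genes ran from -1.57 (Hspa1a) to -0.43 (Hsph1), with none called. Dnajb1 was 109.7 to 187.8 TPM in the monomer mice of batch 1 and 76.8 to 106 TPM in the PFF mice there, and 110.2 to 156 TPM against 67.9 to 96.5 TPM in batch 2. The PFF effect on Dnajb1 was -0.54 ± 0.14 in batch 1 (adjusted p = 0.241) and -0.76 ± 0.10 in batch 2 (adjusted p = 0.000581), and the batch difference of -0.22 ± 0.16 was not called (adjusted p = 0.525). That difference was -0.04 ± 0.16 for Hsph1, 0.15 ± 0.41 for Hspa1a and -0.65 ± 0.55 for Hspa1b, and over the 18 genes 1 was called (Ahsa1, named after its value was seen), with a median of -0.18 against -0.67 for the 10 ER chaperone genes. For PFF at 21% O2 the median estimate of the 18 genes was -0.10 in batch 1 alone, with 0 called. It was -0.25 in batch 2 alone, with 9 called. Of all genes, 0.0609% and 3.91% were called either way in these batches.

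**Figure D5:**
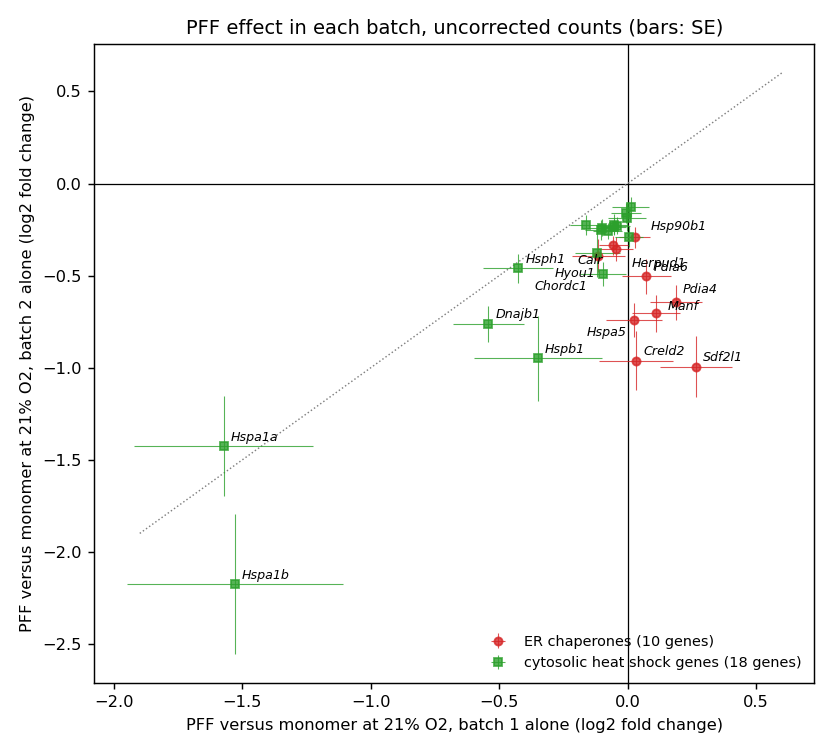
Log2 fold change of PFF against monomer mice at 21% O2 in batch 1 (x axis) and batch 2 (y axis). Each batch was fitted alone on uncorrected counts. Points are the 10 ER chaperone genes and 18 cytosolic or mitochondrial heat shock genes. Bars are SE and the dotted line marks equal values. The ER chaperone genes lie between -0.11 and 0.27 on the x axis and between -0.99 and -0.29 on the y axis. Of the heat shock genes, Dnajb1, Hsph1 and Hspa1a lie near the line. The median of all 18 heat shock genes is -0.10 on the x axis and -0.25 on the y axis.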

How the data were processed

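RNA was sequenced from the SN of 48 mice as poly(A)-selected libraries. Per the study's methods, the authors aligned reads to mm10 with STAR 2.7.5a after removal of ribosomal reads and counted genes with featureCounts 2.0.1 (versions as in the submitters' processing notes). They deposited raw counts per gene for 48 mice, and batch-corrected counts from ComBat-seq for 19601 protein-coding genes in 42 mice, with O2 and injection as covariates. TPM, deposited by the authors for both count tables, are counts scaled by gene length and library total. Batch is the label of that name, which the methods tie to the date of euthanasia.

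The batch-corrected counts were fitted across all genes in edgeR 4.0.16 (R 4.3.3; TMM, filterByExpr, 4 groups in a single fit, glmQLFTest), with p-values adjusted over 14839 genes in each of 5 comparisons, and limma 3.58.1 and DESeq2 1.42.0 as alternatives. Raw counts were used for fits within or with batch. Intervals are at 95%. The scripts were tested on simulated data. Each library is 1 mouse. The study's methods describe a design of matched pairs, but the labels used here name no pairs, so no pairing entered the main fit. Replicate numbers were not taken as pairs.

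The 10 genes and the gene lists were chosen with earlier results of these data known. Named were the 10 genes, Th and Slc6a3, up to 4 called genes per list, comparison and direction with the smallest p, and the 8 genes most like the set. Gene symbols came from the tables, and positions and motifs from RefSeq promoter windows (GRCm38.p6).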

Additional observations from a re-analysis of the deposited data

Results flagged for a closer look

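The PFF effect differed between the 2 oxygen levels for 2 of the 10 genes, by the interaction term of the edgeR fit. For Hspa5 the PFF effect at 11% O2 minus that at 21% O2 was 0.48 on the log2 scale, and for Creld2 it was 0.64, against 1.1% of all genes called higher. With batch as a covariate on the uncorrected counts neither was called (adjusted p = 0.0791 and 0.114). Both use the monomer mice at 21% O2, whose level of these genes was high in batch 2. No call was made without batch 2 (0.0401% of all genes called higher), where the largest of the 10 interaction values was 0.17. No mouse stood apart from its group for any of the 10 genes in the 2 groups small enough for that check, the 9 monomer and 10 PFF mice at 11% O2. The lowest and the highest value were checked in each of 20 combinations of gene and group.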

How the results depend on the processing

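The number of the 10 genes called for PFF against monomer at 21% O2 was 7 (1.41% of all genes called lower). It was 0 in batch 1 alone (0.0542% of all genes called lower) and 0 without batch 2 (0.127%). It was 6 or 7 when each of the 42 mice was left out in turn. For 11% against 21% O2 in monomer mice it was 8 (2.55% of all genes called lower). It was 0 in batch 1 alone (1.07%) and 0 without batch 2 (0.374%), and 7 or 8 with a mouse left out. For both, all other alternatives gave counts within 1.5 times. The interaction count of 2 (1.1% of all genes called higher) was 0 with batch as a covariate on 42 mice (0.649%) or 48 mice (0.481%). It was 0 in batch 1 alone (0.0745%) and 0 without batch 2 (0.0401%). It was 1 in limma with TPM + 1 or TPM + 0.1 on the log2 scale and 6 with no batch term. With a mouse left out it was 2 to 4 (Manf and Hyou1 were then also called, both without monomer 11% O2 replicate 3). The other 2 comparisons stayed at 0 throughout. The fit without batch 2, the fit with no batch term and the test between batches were chosen after seeing the data.

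Among the 7 genes called for PFF at 21% O2, the sign turned in batch 1 alone for Sdf2l1 (0.27), Pdia6 (0.0730), Hspa5 (0.0244), Pdia4 (0.19), Creld2 (0.0336) and Manf (0.11). Without batch 2 it turned for Sdf2l1 (0.0925), Pdia6 (0.0229), Pdia4 (0.0878), Creld2 (0.00618) and Manf (0.0501). Over all 10 genes, called or not, 7 estimates were above 0 in batch 1 alone and 5 without batch 2. No call turned its sign in the other comparisons. The fits with fewer mice have less power, and the cause was not tested. The replicate number is not known to pair the mice (r of same-numbered mice from -0.38 to 0.39). With it as a block, 7, 8 and 0 genes were called for PFF at 21% O2, O2 in monomer mice and the interaction. The block changed no other count. Sdf2l1 and Creld2 had the fewest counts and the widest intervals.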
